A study of Mus musculus with 9 samples.

Results

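Fatty acid synthesis and desaturation were followed through 10 genes, among 48440 genes counted: Srebf1, Acly, Acss2, Acaca, Fasn, Elovl6, Scd1, Scd2, Fads1 and Fads2. They were chosen as the lipogenic genes classically tied to the transcription factor SREBP1, and each was found by matching the deposited gene identifier to its symbol. Their RNA was measured in J1 mouse embryonic stem cells, all of genotype Suz12-AID, in which Suz12, a Polycomb subunit, is fused to an auxin-inducible degron that has the protein destroyed while auxin is present. The 9 libraries form 3 groups of 3 replicates: Mock, Auxin (50 µM auxin for 96 h) and Re-introduction (50 µM auxin for 96 h, then washed out for 4.5 h). A washout is given for Re-introduction alone, so its handling cannot be told apart from the removal of auxin. The labels name no other agent for Mock. All groups grew on gelatin in 15% serum with leukemia inhibitory factor, 1 µM of the MEK inhibitor PD0325901 and 3 µM of the GSK3 inhibitor CHIR99021. All of them carry the tagged allele, the labels give no number of clones, and no untagged line treated with auxin was analysed here, so loss of Suz12 and other actions of auxin cannot be told apart.

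Fatty acid synthesis starts in the cytosol, where ATP citrate lyase and acetyl-CoA synthetase supply acetyl-CoA, acetyl-CoA carboxylase turns it into malonyl-CoA, and fatty acid synthase builds palmitate. Elovl6 lengthens palmitate, stearoyl-CoA desaturases place the first double bond, and Fads1 and Fads2 add further double bonds to polyunsaturated chains. SREBP1 and its relative SREBP2 are held in the endoplasmic reticulum by Insig proteins and, once cut free, bind sterol regulatory elements, usually beside sites for NF-Y and Sp1. Dividing stem cells use these lipids for membranes.

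Poly(A) RNA was sequenced as 75 bp paired-end reads, and library totals ran from 44341283 to 113931419 counted mates. Levels are CPM, counts scaled to a common library size after TMM normalization, and fold changes come from edgeR's quasi-likelihood test over 20838 genes with Benjamini-Hochberg adjustment, called at an adjusted p under 0.05. The series calls the replicates biological without naming cultures, so the p-values measure the spread between these samples. Suz12 mRNA ran from 125.5 to 137.5 CPM in Mock libraries, from 121.9 to 152.2 in Auxin libraries and from 164 to 172.6 after washout, which does not check a tag that acts on the protein. Mitochondrial counts were 3.79% to 3.999% of the total in Mock and Auxin and 4.58% to 4.80% in Re-introduction. Auxin replicate 2 stood apart from its group in how counts followed gene length, at 0.01 log2 units per doubling of length against 0.15 in the other Auxin libraries, and values that rest on it are given with and without it.

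Most of the pathway was low in Auxin and high again after washout. Together the 10 genes made up 0.209% to 0.223% of all counts in Mock, 0.102% to 0.105% in Auxin and 0.234% to 0.249% in Re-introduction. On the TMM scale their summed CPM was 2314 to 2383 in Mock, 947.2 to 986.6 in Auxin and 2304 to 2461 in Re-introduction. Mock and Re-introduction thus overlapped on that scale. The sum is weighted to the most abundant genes, Scd2, Fasn and Acly, with Mock means of 821.5, 561.6 and 468.8 CPM. In Auxin against Mock, 7 of the 10 fell (Srebf1, Acly, Acaca, Fasn, Scd1, Scd2, Fads2), 2 rose (Acss2, Fads1) and Elovl6 was not called. Over all genes tested 73.2% were called in this comparison, 34.8% lower and 38.4% higher, against which the 7 and the 2 are read. With counts scaled to library totals instead of TMM, the median over all genes was 0.26 log2 units instead of 0.05, and the split over all genes became 9748 higher and 5662 lower, against 7996 and 7261 with TMM. At 2-fold or more, 5 of the 10 fell, against 12% of all genes, and the libraries of both groups did not overlap for 9 of the 10, against 74.3% of all genes. The count of 5 depended on the fit. Among the alternative fits, the smallest falls of Srebf1, Acly and Fads2 were under 2-fold, at -0.901, -0.967 and -0.653. Acaca, under 2-fold here, reached -1.629 at the largest. Fasn and Scd2 stayed past 2-fold in all of them, at -1.539 and -1.941 at the smallest. The median log2 fold change of the 10 was -0.945, against 0.05 over all genes.

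In Re-introduction against Auxin, 9 of the 10 genes rose, none fell, and Fads1 was not called. The background was 50.9% of genes called, 25.5% higher and 25.5% lower, or 4279 higher and 6393 lower with library totals against 5305 and 5308 with TMM. Fasn, Scd2, Elovl6 and Fads2 rose 2-fold or more, 4 of 10 genes against 4.16% of all genes, and 9 of the 10 did not overlap between groups, against 58.2%. Without Auxin replicate 2, the rise of Elovl6 was 0.898 log2 units, under 2-fold. This comparison shares the Auxin libraries with the first, so a gene low in those libraries is lower in one and higher in the other, and the values stand side by side without a test between them. In Re-introduction against Mock, 5 of the 10 were higher, 3 were lower and 2 were not called, where 68.1% of all genes were called, 34.7% higher and 33.4% lower, or 8570 higher and 5736 lower with library totals against 7225 and 6966 with TMM. Neither count stands far from that background. Acss2 and Elovl6 were higher by 2-fold or more, 2 of 10 genes against 15% of all genes (both under 2-fold with length and GC trends removed), and 9 of the 10 did not overlap, against 75.2%. In bulk libraries, fewer cells that express a gene and less of its RNA per cell cannot be told apart.

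**Figure D1:**
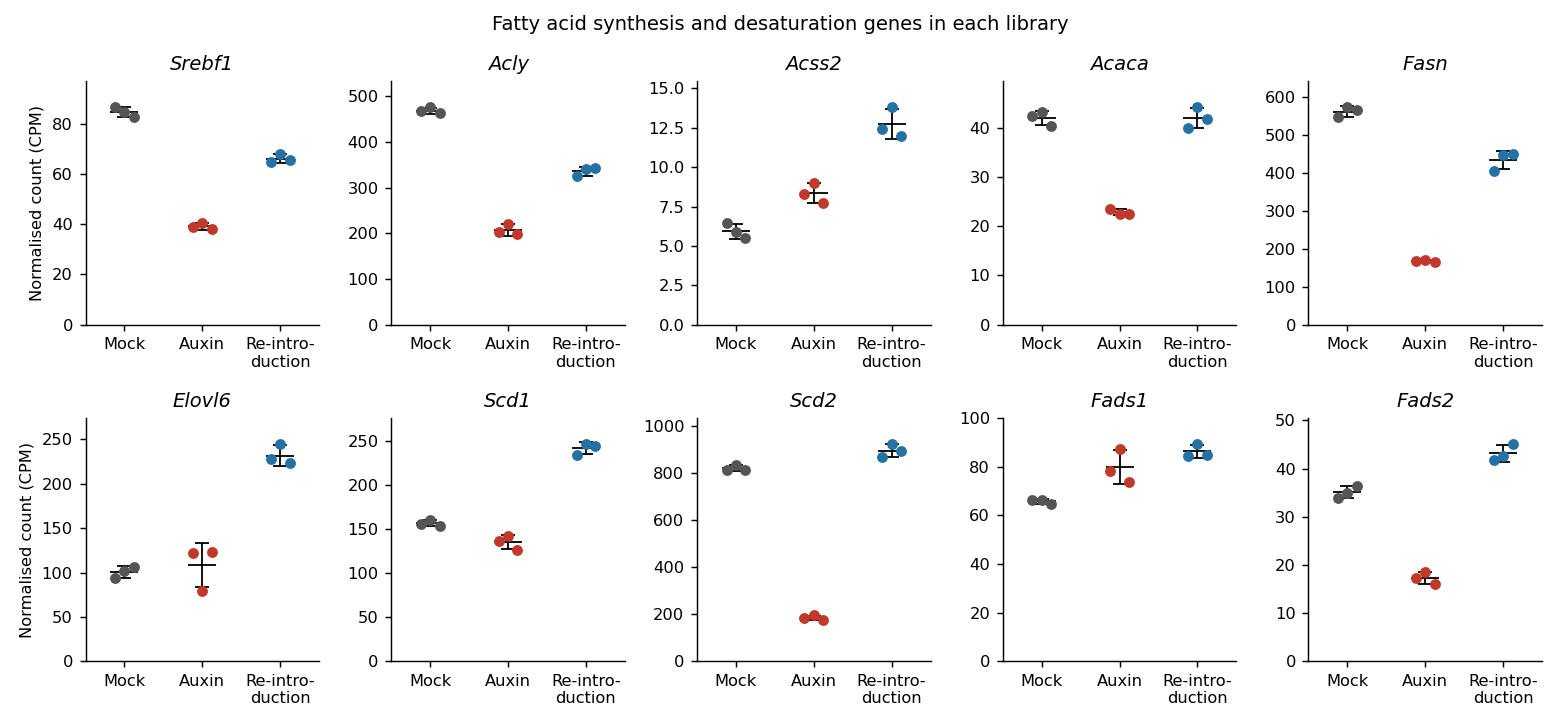
CPM of each of the 10 genes (vertical axis, starting at 0) in the 3 libraries of each group (points), with bars for the group mean and SD. Srebf1, Acly, Acaca, Fasn, Scd2 and Fads2 have their lowest points in Auxin with a clear gap to both other groups, while Acss2 and Fads1 have theirs in Mock.

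Srebf1 (ENSMUSG00000020538.15, chr11:60199089-60222581, minus strand, mm10) encodes SREBP1 and stood at 86.6, 84.8 and 82.7 CPM in the Mock libraries, 39.0, 40.7 and 37.9 in Auxin, against 64.7, 68.0 and 65.8 in Re-introduction. The 3 groups did not overlap, and Re-introduction lay between the other two. Srebf1 fell 2.16-fold in Auxin (log2 fold change -1.11, SE 0.05, adjusted p 6.07e-09) and rose 1.69-fold after washout (0.75, SE 0.05, adjusted p 5.07e-07). It remained lower than Mock by 0.36 log2 units (-0.36, SE 0.05, adjusted p 7.21e-05), at 78.1% of the Mock mean. The counts merge all transcripts of the locus, so the 1a and 1c forms of SREBP1, which start at different promoters, were not separated. Exons of Rai1 and Mir6922 share 3.11% of its exon length.

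Acly (ENSMUSG00000020917.17, chr11:100476353-100528000, minus strand), which splits exported citrate into acetyl-CoA, followed Srebf1 closely. Its levels were 467, 476 and 463 CPM in Mock, 203, 221 and 198 in Auxin, with 325, 340.1 and 344 in Re-introduction. Acly was thus lowest in the 3 Auxin libraries and intermediate after washout, with no overlap between groups. It fell 2.26-fold in Auxin (-1.18, SE 0.06, adjusted p 8.39e-09), rose 1.62-fold after washout (0.70, SE 0.06, adjusted p 1.82e-06) and stayed at 71.7% of Mock (-0.48, SE 0.06, adjusted p 1.62e-05).

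Acss2 (ENSMUSG00000027605.18, chr2:155517948-155585724, plus strand) makes acetyl-CoA from acetate and went another way. It was the scarcest of the 10 genes, with 6.46, 5.85 and 5.53 CPM in Mock, 8.32, 9.03 and 7.73 in Auxin, then 12.4, 13.8 and 11.98 in Re-introduction. Each group lay above the one before without overlap. Acss2 rose by 0.49 log2 units in Auxin (SE 0.09, adjusted p 0.000483), but this became -0.02 (adjusted p 0.86) when trends of counts on gene length and GC content were removed. It rose a further 0.61 after washout (SE 0.09, adjusted p 0.000192) and ended 2.13-fold above Mock (1.09, SE 0.09, adjusted p 1.35e-06), or 0.63 log2 units above it with both trends removed and 0.56 with the length trend alone removed, still called but under 2-fold. Exons of Ggt7, Gss and the antisense gene Acss2os share 9.12% of its exon length, and because strand was not used in counting, their reads and those of Acss2 cannot be told apart there.

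Acaca (ENSMUSG00000020532.18, chr11:84129672-84401651, plus strand), the cytosolic acetyl-CoA carboxylase and the committed step of the pathway, was at 42.4, 43.1 and 40.4 CPM in Mock, 23.6, 22.5 and 22.5 in Auxin, against 40.04, 44.2 and 41.7 in Re-introduction. The Auxin libraries lay apart, and the other groups overlapped. Acaca fell 1.84-fold in Auxin (-0.88, SE 0.06, adjusted p 9.28e-08) and rose 1.83-fold after washout (0.88, SE 0.06, adjusted p 4.19e-07). Against Mock the difference after washout was 0.00 log2 units, with a 95% interval from -0.12 to 0.12 (adjusted p 0.988). Acaca has the longest exon length of the 10 genes, 17074 bases, and its values depended on the length trend. With length and GC trends removed, the fall in Auxin was 1.58 log2 units (-1.58) and Re-introduction was called lower than Mock (-0.71, adjusted p 2.74e-06), while the rise after washout stayed at 0.88.

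Fasn (ENSMUSG00000025153.9, chr11:120805846-120824547, minus strand), the multifunctional enzyme that assembles palmitate, gave one of the deepest falls of the 10. It stood at 547, 573 and 565 CPM in Mock, 167, 169.5 and 165 in Auxin, with 405, 446 and 450.01 in Re-introduction. The Auxin libraries spanned only 165 to 169.5 CPM and lay far below both other groups, which did not overlap each other. Fasn fell 3.36-fold in Auxin (-1.75, SE 0.06, adjusted p 5.72e-10), to 29.8% of Mock, and rose 2.60-fold after washout (1.38, SE 0.06, adjusted p 1.12e-08). After 4.5 h of washout it was still lower than Mock (-0.37, SE 0.05, adjusted p 1e-04), at 77.3% of it. With length and GC trends removed that remaining difference was -0.73 (adjusted p 1.17e-07).

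Srebf1, Acly and Fasn were each called lower in Auxin, higher after washout and still lower than Mock, and their promoters are shown for that reason. Acaca, also lower in Auxin and higher after washout, was level with Mock in this fit and is not shown. RefSeq windows on GRCm38.p6 (250 bases before to 50 after the start) were given for 7 of the 10 genes, 9 windows in all, of which Srebf1 has 3. Both strands were searched for a sterol regulatory element (TCACNCCAC), the NF-Y box (CCAAT), the GC box bound by Sp1 (GGGCGG) and the E-box (CACGTG). The 250 bases before the start are printed 5′ to 3′ on the gene's strand, with matches to CCAAT and GGGCGG on either strand in capitals. The Srebf1 window shown is the first of its 3 by coordinate, chr11:60210472-60210721, inside the span of the gene and downstream of its other starts. Acly is shown at chr11:100528001-100528250 and Fasn at chr11:120824548-120824797, and the 3 genes are on the minus strand.
Srebf1: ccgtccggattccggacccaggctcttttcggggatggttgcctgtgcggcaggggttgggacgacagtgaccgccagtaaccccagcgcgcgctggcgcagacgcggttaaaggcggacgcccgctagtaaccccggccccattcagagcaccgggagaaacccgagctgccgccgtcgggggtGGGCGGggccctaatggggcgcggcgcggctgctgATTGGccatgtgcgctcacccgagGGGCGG
Acly: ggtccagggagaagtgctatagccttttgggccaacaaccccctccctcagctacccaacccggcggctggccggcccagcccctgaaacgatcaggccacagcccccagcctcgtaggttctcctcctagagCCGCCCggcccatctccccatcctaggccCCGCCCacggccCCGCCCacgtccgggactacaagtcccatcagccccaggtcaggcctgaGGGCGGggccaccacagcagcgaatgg
Fasn: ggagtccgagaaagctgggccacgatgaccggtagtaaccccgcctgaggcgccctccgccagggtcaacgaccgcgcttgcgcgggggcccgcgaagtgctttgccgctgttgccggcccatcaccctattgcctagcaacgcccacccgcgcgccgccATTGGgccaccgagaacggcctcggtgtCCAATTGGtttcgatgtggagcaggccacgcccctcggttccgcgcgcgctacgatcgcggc

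Counting the base before the start as -1, and giving each match by its leftmost base, the Fasn window held 3 matches to CCAAT, at -90, -62 and -59. The last 2 of these overlap, since the forward match and the reverse one share bases. It held no GGGCGG. The Acly window held 4 GC boxes, at -117, -88, -76 and -27, and a CCAAT after the start at 37. The Srebf1 window shown held GC boxes at -65 and -6 and a CCAAT on the reverse strand at -30. Its windows not printed differed. The one at chr11:60220628-60220877 held GGGCGG without CCAAT, and the most upstream, at chr11:60222582-60222831, held CCAAT without GGGCGG. Over the 9 windows, CCAAT was in 5 and GGGCGG in 5, against 37.4% and 35.7% of all 32851 promoter windows of that length. TCACNCCAC and CACGTG were in none of the 9, against 1.24% and 7.15% of all windows. The Acaca and Elovl6 windows, not printed, held no match to any of the motifs searched. Only exact matches to these letters were counted, so variant sites would be missed. With TCACNCCAC in 1.24% of all windows, its absence from 9 windows says little. These letters describe the sequence only, and no binding was measured.

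Elovl6 (ENSMUSG00000041220.10, chr3:129532355-129638495, plus strand), the elongase that takes palmitate to stearate, was not called in Auxin. Its levels were 93.5, 102 and 106 CPM in Mock, 122, 79.7 and 124 in Auxin, then 227, 245 and 223 in Re-introduction. Auxin replicate 2 was below all Mock libraries and the other Auxin libraries were above them, so these groups overlapped, while every Re-introduction library lay above all the rest. In Auxin, Elovl6 differed by 0.11 log2 units (SE 0.14, adjusted p 0.483). Without Auxin replicate 2 it was called higher (0.28, adjusted p 0.000315), and with length and GC trends removed it was called lower (-0.26, adjusted p 0.0347), so no direction held. It rose 2.14-fold after washout (1.09, SE 0.14, adjusted p 6.04e-05) and ended 2.30-fold above Mock (1.204, SE 0.14, adjusted p 1.62e-05). Removing both trends left these rises called, at 1.09 and 0.83. Without Auxin replicate 2 the rise after washout was 0.898, still called but under 2-fold.

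The stearoyl-CoA desaturases, which make monounsaturated fatty acids, moved unequally. Scd2 (ENSMUSG00000025203.5, chr19:44293676-44306864, plus strand), the form abundant in brain and in embryonic tissue, was at 816, 836 and 813 CPM in Mock, 184, 196 and 176 in Auxin, against 869, 925 and 893 in Re-introduction. It fell 4.44-fold in Auxin (-2.15, SE 0.06, adjusted p 1.95e-10), to 22.5% of Mock, and rose 4.84-fold after washout (2.28, SE 0.06, adjusted p 6.33e-10). Of the 10 genes it had the largest change in both of these comparisons, with and without length and GC trends. The Re-introduction libraries all lay above Mock by a little (0.13, SE 0.05, 95% interval 0.004 to 0.25, adjusted p 0.0634). That difference was called with library totals (0.26, adjusted p 0.00119) and was -0.07 with the length trend removed.

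Scd1 (ENSMUSG00000037071.2, chr19:44394451-44407709, minus strand), the form best known from liver and fat, changed little in Auxin. Its levels were 155, 160.4 and 153 CPM in Mock, 137, 142 and 127 in Auxin, with 234, 246 and 244 in Re-introduction. No groups overlapped, and Re-introduction was highest. Scd1 fell by 0.21 log2 units in Auxin (SE 0.05, adjusted p 0.00487), a call that was lost with library totals (0.00, adjusted p 0.996). It rose 1.78-fold after washout (0.83, SE 0.06, adjusted p 4.77e-07) and ended 1.54-fold above Mock (0.62, SE 0.06, adjusted p 2.17e-06).

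A ratio of both genes within a library does not depend on scaling between libraries. Per kilobase of exon, Scd2 exceeded Scd1 by 4.62 to 4.70 times in Mock, 1.19 to 1.23 times in Auxin and 3.25 to 3.33 times in Re-introduction. The log2 ratio of Scd1 to Scd2 was -2.22 ± 0.01 in Mock, -0.28 ± 0.03 in Auxin and -1.72 ± 0.02 in Re-introduction (mean ± SD, n = 3 libraries each). No groups overlapped in any of the 3 comparisons, and each two-sided exact permutation test gave p = 0.1, the smallest that 3 against 3 allows. Scd1 and Scd2 lie 87.6 kb apart on chromosome 19, on opposite strands. They are close paralogs, and reads that both could have yielded may be missing from either count. Scd4, a further paralog beside them, fell in Auxin (-1.27, SE 0.18, adjusted p 4.84e-05) and rose after washout (1.93, SE 0.17, adjusted p 4.5e-06), at mean levels of 1.09, 0.45 and 1.72 CPM in Mock, Auxin and Re-introduction.

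The front-end desaturases of polyunsaturated fatty acids also moved unequally. Fads2 (ENSMUSG00000024665.7, chr19:10064164-10101503, minus strand), the delta-6 desaturase, was at 34.0, 34.9 and 36.4 CPM in Mock, 17.4, 18.5 and 16.1 in Auxin, then 41.7, 42.6 and 45.1 in Re-introduction. It was lowest in Auxin and highest after washout, with no overlap. Fads2 fell 2.02-fold in Auxin (-1.01, SE 0.06, adjusted p 8.39e-08), rose 2.49-fold after washout (1.31, SE 0.07, adjusted p 5.27e-08) and ended 1.23-fold above Mock (0.30, SE 0.06, adjusted p 0.00146). Fads2 has the shortest exon length of the 10, 1508 bases, and with length and GC trends removed the fall was -0.66 and the excess over Mock 0.69, both still called.

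Fads1 (ENSMUSG00000010663.4, chr19:10182888-10196870, plus strand), the delta-5 desaturase, was at 66.2, 66.4 and 64.5 CPM in Mock, 78.2, 87.4 and 73.9 in Auxin, against 84.5, 89.3 and 84.8 in Re-introduction. Mock was lowest, and the other groups overlapped. Fads1 rose by 0.28 log2 units in Auxin (SE 0.06, adjusted p 0.00194) and was 0.39 above Mock after washout (SE 0.06, adjusted p 0.000225). Between Auxin and Re-introduction it differed by 0.11 (95% interval -0.03 to 0.25, adjusted p 0.169), or by 0.17 without Auxin replicate 2, where it was called (adjusted p 0.00788). The log2 ratio of Fads1 to Fads2 per kilobase was -0.29 ± 0.07 in Mock, 1.00 ± 0.04 in Auxin and -0.20 ± 0.08 in Re-introduction (mean ± SD, n = 3 each). Which of them is higher in a group depends on the deposited length of Fads2, while differences between groups in this ratio do not. Removing length and GC trends, which uses the deposited lengths, does shift these differences, as given below for Re-introduction against Mock. The ratio differed by 1.29 in Auxin against Mock and by -1.20 in Re-introduction against Auxin, each with an exact two-sided permutation p = 0.1. Re-introduction against Mock gave 0.09 with an exact permutation p = 0.3 and overlapping libraries. Fads1 and Fads2 lie 81.4 kb apart on chromosome 19, also on opposite strands.

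**Figure D2:**
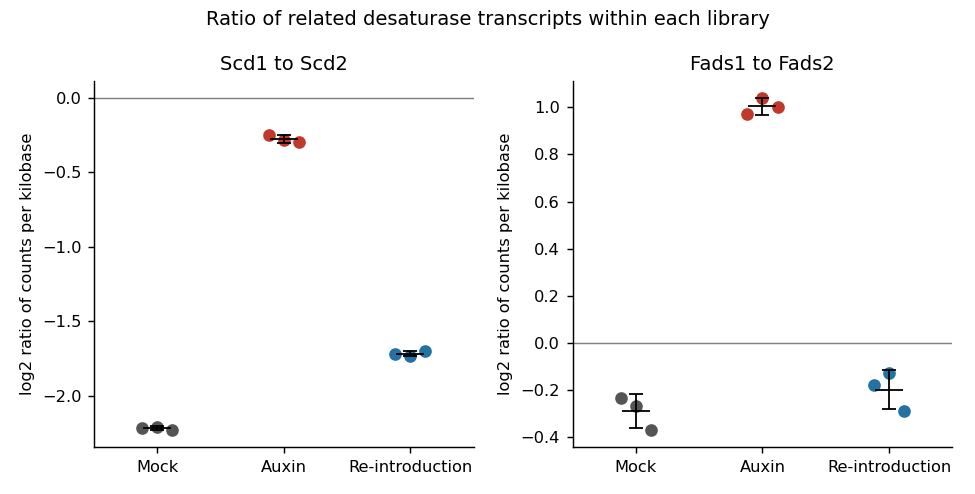
Log2 ratio of counts per kilobase of Scd1 to Scd2 (left) and Fads1 to Fads2 (right) in each library (points) with group mean and SD (bars); the grey line marks equal levels. Both ratios are highest in the 3 Auxin libraries, where Scd1 comes within 1.23 times of Scd2 and Fads1 exceeds Fads2.

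**Figure D3:**
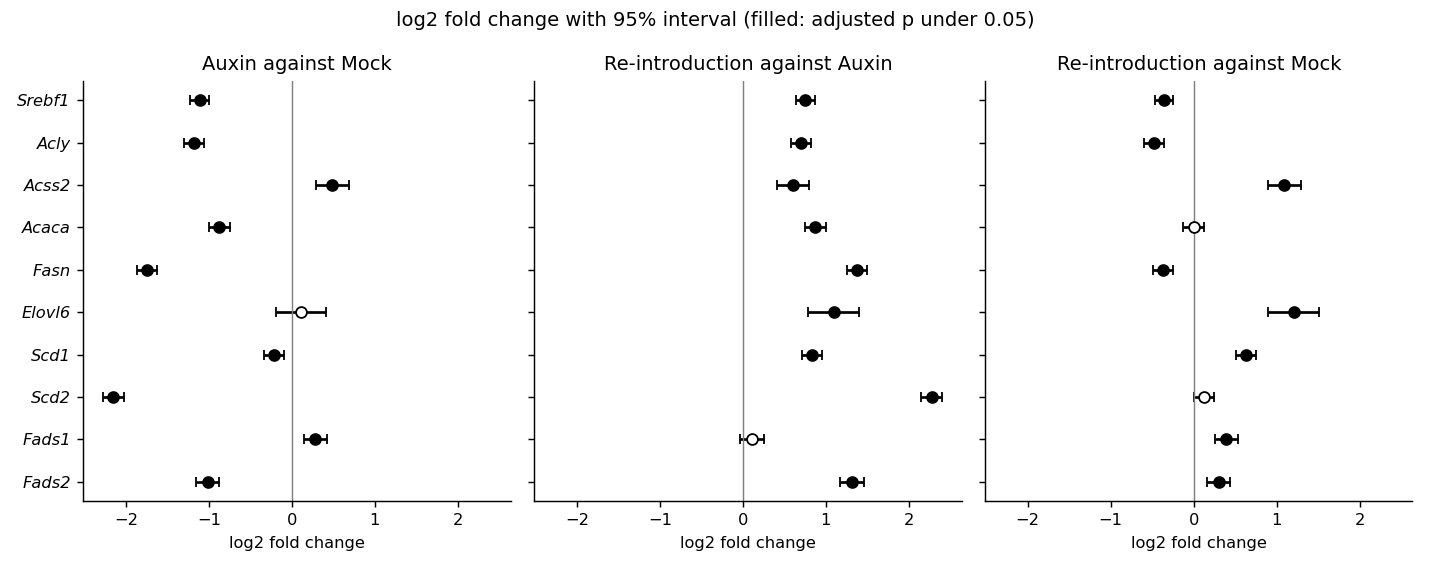
Log2 fold change of each gene (horizontal axis) with its 95% interval in the 3 comparisons, from edgeR's quasi-likelihood fit; filled points had an adjusted p under 0.05. Scd2 and Fasn lie farthest left in Auxin against Mock, all points lie right of 0 in Re-introduction against Auxin with Fads1 open, and the points spread to both sides in Re-introduction against Mock.

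After 4.5 h of washout the 10 genes stood at different places relative to Mock. Acly, Fasn and Srebf1 were at 71.7%, 77.3% and 78.1% of their Mock means. Acaca was level with Mock and Scd2 at 109.0% of it, neither of them called. Fads2, Fads1, Scd1, Acss2 and Elovl6 were at 123.0%, 131.2%, 154.3%, 214.2% and 230.4%, all called higher. Of these last 5, Fads2 and Scd1 were called lower than Mock in Auxin and higher than Mock in Re-introduction, with the exception that the first of these calls was lost for Scd1 with library totals.

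The order of the genes by level per kilobase of exon (RPKM from the same scaled counts and the deposited lengths) changed with the group. In Mock, Scd2 led at 150.7 ± 2.23 RPKM, followed by Acly at 88.8 ± 1.25, Fasn at 51.3 ± 1.23 and Scd1 at 32.4 ± 0.74 (mean ± SD, n = 3). Fads2, Fads1, Elovl6 and Srebf1 came next at 23.3, 19.0, 15.6 and 15.0, the last 2 of them overlapping. The place of Fads2 rests on its deposited exon length of 1508 bases, which was not checked against its transcripts. Acaca at 2.46 and Acss2 at 0.59 were lowest, as in every group. In Auxin, Acly led at 39.3 ± 2.33, ahead of Scd2 at 33.9 ± 1.85, and Fasn dropped to the sixth place at 15.3 ± 0.20, where its libraries overlapped those of Elovl6 at 16.9 ± 3.88. In Re-introduction, Scd2 led again at 164.3 ± 5.16, followed by Acly at 63.7 ± 1.86, Scd1 at 49.9 ± 1.38, and Fasn at 39.6 ± 2.26, which overlapped Elovl6 at 36.0 ± 1.81. All other neighbours in these orders had libraries that did not overlap.

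Likeness of course was measured as the root mean square difference of centred log2 CPM over the 9 libraries, where a smaller value means a closer match. Among all pairs of the 10 genes, Srebf1 and Acly were closest at 0.06, then Srebf1 and Acaca at 0.15. Scd2 with Fads1 and Scd2 with Acss2 were farthest, at 1.09 each. Among 15171 other genes averaging 1 CPM or more, those closest to Fasn were Ier5l at 0.07, Ctnnal1 at 0.08 and S1pr2 at 0.09. Those closest to Srebf1 were Gm7733, Amd2 and Dapp1, at 0.04 each. Gm7733 and Amd2 resemble other genes in sequence, so their counts are uncertain.

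Gene length mattered more for some of these genes than for others. Over 10177 protein-coding genes, counts changed by -0.25 to -0.17 log2 units per doubling of gene length in Mock, by 0.01 to 0.15 in Auxin and by 0.08 to 0.10 in Re-introduction, relative to the mean library. Per 10 percentage points of GC content the change was 0.16 to 0.26 in Mock, -0.14 to 0.14 in Auxin and -0.18 to -0.13 in Re-introduction. These trends moved with the groups, and their part in the differences from Mock was not tested beyond the refits given here. The ranges of Auxin and Re-introduction overlapped in both trends, but for length only through Auxin replicate 2. The other Auxin libraries, at 0.15, lay above every Re-introduction library in the length trend. Removing the trends left the 9 rises between these groups called, at 0.65 (Acss2) to 2.32 (Scd2) log2 units, with Fads1 then called as well (0.16).

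**Figure D4:**
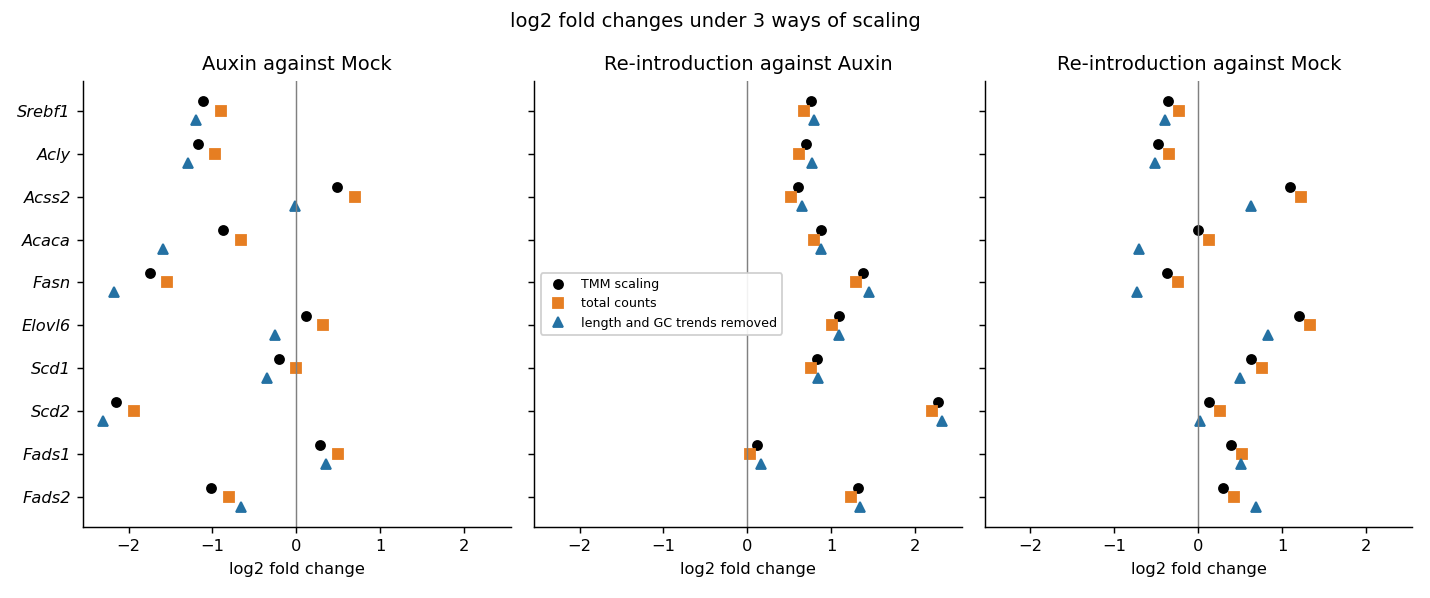
Log2 fold change of each gene (horizontal axis) in the 3 comparisons with TMM scaling (circles), library totals (squares), and length and GC trends removed (triangles). In Re-introduction against Auxin the 3 symbols nearly coincide, while in both comparisons with Mock the triangles of Acaca, Fasn and Acss2 lie left of the circles and those of Fads2 lie right of them.

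Related pathways give a setting for these values, all from lists picked with earlier results of the same libraries in view. All list counts below are read beside the shares over all genes tested. These were 38.4% higher and 34.8% lower in Auxin against Mock, and 25.5% higher and 25.5% lower in Re-introduction against Auxin. In Re-introduction against Mock they were 34.7% higher and 33.4% lower. The list counts are those of the TMM fit. With length and GC trends removed, some Auxin against Mock calls in these lists were lost and others were added, so the counts depend on the fit. Sterol synthesis shares SREBP control with fatty acid synthesis. All 9 genes from acetyl-CoA to squalene fell in Auxin and all 9 rose after washout, with medians of -1.60 and 1.65 log2 units. Idi1, the isopentenyl diphosphate isomerase, moved farthest, by -2.46 (SE 0.05, adjusted p 7.8e-11) and 2.90 (SE 0.05, adjusted p 1.1e-10). All 12 genes from squalene to cholesterol also fell and rose, with medians of -0.95 and 1.40. Against Mock, 5 of the 9 were higher and 1 lower after washout (median 0.35), and 6 of the 12 were higher and 4 lower (median 0.31). Among the 10 fatty acid genes, 7 fell, 9 rose, and the medians were -0.945 and 0.855. Whether the lists differ was not tested.

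Of 14 regulators of SREBP and LXR, 7 rose and 5 fell in Auxin (median 0.19, or -0.01 with length and GC trends removed), and 5 rose and 5 fell after washout. Insig1, which retains SREBP in the endoplasmic reticulum and is itself an SREBP target, fell by 2.24 log2 units in Auxin (SE 0.05, adjusted p 1.17e-10) and rose by 2.62 after washout (SE 0.05, adjusted p 1.61e-10). Of 11 genes for citrate export, acetyl-CoA and NADPH, 7 fell and 3 rose in Auxin, among them the pentose phosphate enzyme Tkt at -1.45 (SE 0.07, adjusted p 7.57e-09) and malic enzyme Me1 at 1.06 (SE 0.06, adjusted p 3.72e-08). After washout 6 of the 11 rose and 3 fell, with Aacs at 1.28 (SE 0.06, adjusted p 2.36e-08) and mitochondrial Acss1 at -1.71 (SE 0.08, adjusted p 4.1e-08).

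Of 15 other elongation and desaturation genes that could be tested, 9 rose and 6 fell in Auxin (median 0.24), and 9 rose and 3 fell after washout (median 0.43). The elongase Elovl7 rose by 2.33 log2 units in Auxin (SE 0.07, adjusted p 4.82e-10), and Elovl4, which makes very long chains, fell by 1.37 after washout (SE 0.08, adjusted p 1.23e-07). Among 18 genes of acyl-CoA activation and glycerolipid assembly, 10 rose and 3 fell in Auxin. Gpat3, an acyltransferase of triglyceride synthesis, rose from 0.18 to 3.91 CPM in Auxin (4.36, SE 0.29, adjusted p 1.31e-07), and Dgat2, which completes triglycerides, fell by 2.86 after washout (SE 0.09, adjusted p 2.75e-09). That fall of Dgat2 followed a rise in Auxin (3.56, SE 0.10, adjusted p 2.05e-10). Its means were 6.05, 71.7 and 9.89 CPM in Mock, Auxin and Re-introduction. Acsl3, an acyl-CoA synthetase, fell by 0.98 in Auxin (SE 0.08, adjusted p 7.91e-07) and rose by 1.29 after washout (SE 0.08, adjusted p 4.02e-07). Of 22 oxidation genes, 12 rose and 9 fell in Auxin, with Cpt1a, the gate of mitochondrial fatty acid import, up by 2.05 (SE 0.05, adjusted p 1.64e-10), and 4 rose and 8 fell after washout, with Cpt1a down by 1.23 (-1.23, SE 0.05, adjusted p 1.67e-08). Of 6 genes of mitochondrial fatty acid synthesis, 3 rose in Auxin and 4 fell after washout.

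Marker lists moved with the groups as well, and their part in the lipogenic differences was not tested. The 10 pluripotency markers were all present, with summed levels of 6186 to 6367 CPM in Mock, 7625 to 8182 in Auxin and 5956 to 6024 in Re-introduction. In Auxin, 7 of them rose and 3 fell (Pou5f1 -0.53, Dppa5a -1.16, Utf1 -1.03), and after washout 2 rose and 7 fell relative to Auxin. All 6 primitive endoderm markers rose in Auxin and fell after washout, and their sum stayed low, at 3.09 to 3.69, 13.5 to 14.4 and 6.05 to 6.53 CPM. Summed trophoblast markers were 62.6 to 65.7, 107.6 to 118.7 and 109.6 to 115.3 CPM, carried by Tfap2c and Eomes. In Auxin Tfap2c rose (1.67, SE 0.06, adjusted p 1.05e-09), while Eomes fell (-0.46, SE 0.05, adjusted p 1.01e-05) and so did Cdx2, from a mean of 1.70 to 0.08 CPM (-4.32, SE 0.54, adjusted p 2.27e-05). Elf5, Gata3 and Krt7 each averaged under 1 CPM in every group. Fibroblast markers summed to 17.8 to 20.02, 39.05 to 46.4 and 37.4 to 38.8 CPM, of which only Thy1 passed 1 CPM in any group, and Dcn and Lum were at 0 in every Auxin library. The 6 adipocyte markers together stayed under 1 CPM in each library, and Lep was at 0 in all 9.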

How the data were processed

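The 9 libraries were analysed from raw counts per gene that the authors deposited without normalization. Per the file headers, featureCounts 2.0.6 counted reads over exons grouped by gene, from an mm10 annotation, without strand, in paired mode but with each mate counted. The submitters' processing notes also name Trim Galore 0.6.10, FastQC 0.12.1, Bowtie2 2.5.3 and SAMtools 1.20, without their roles. Counts ran from 44341283 to 113931419 mates a library, and intervals cover the spread between libraries. A symbol table matched 48058 of 48440 identifiers, and GC content came from GENCODE M21 (99.21% of identifiers, 10 of 10 genes). In R 4.3.3, edgeR 4.0.16 (filterByExpr, TMM factors from 0.905 to 1.08, 1 quasi-likelihood fit of all 9 libraries without a replicate term) tested 20838 genes, with Benjamini-Hochberg adjustment. The common biological coefficient of variation was 9.15%. Alternatives used DESeq2 1.42.0, other scalings and filters, and each library left out. Scripts were tested on simulated counts with 200 genes changed 2-fold in each comparison. Of these, 71.5%, 79% and 79.5% were recovered in Auxin against Mock, Re-introduction against Auxin and Re-introduction against Mock. In the same order, 7.14%, 8.14% and 4.79% of calls were false, at an adjusted p under 0.05. The 10 genes, the other lists and the tests were chosen with earlier results of these data known. From each other list, the called gene with the largest rise and the one with the largest fall, with at least 1 CPM in the higher group, could be named, except for a gene that is not reported here. Pou5f1, Utf1 and Eomes were named in Auxin after their values were seen. Hsd17b8 had no identifier in the table.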

Additional observations from a re-analysis of the deposited data

How the results depend on the processing

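Each of the 30 fold changes of the 10 genes was recomputed under 17 alternatives. A further limit of at least 2-fold lowered the counts of called genes to 6625 (Auxin against Mock), 2289 (Re-introduction against Auxin) and 4664 (Re-introduction against Mock), and those of the 10 genes to 5, 4 and 2. Under the other alternatives, 8 to 10, 9 to 10 and 8 to 9 of the 10 were called. In Auxin against Mock, Acss2 turned to -0.028 with the length trend removed, -0.022 with length and GC trends removed and -0.023 with both and a replicate block, and Elovl6 turned to -0.174, -0.255 and -0.262 (adjusted p 0.194, 0.0347 and 0.04). Acaca in Re-introduction against Mock, at -0.001, turned to 0.13 with library totals, 0.002 without a filter, 0.021 with a 1 CPM filter, 0.005 with halved counts, 0.005 with only the 2 groups and between -0.052 and 0.01 when single libraries were left out, none of them called. It was called lower with the length trend removed (-0.845). Scd2 in Re-introduction against Mock turned to -0.066 with the length trend removed and was called higher with library totals (0.255), the 1 CPM filter (0.146), halved counts (0.131) and only the 2 groups (0.132). The Fads1 to Fads2 ratio in Re-introduction against Mock turned from 0.09 to -0.177 with length and GC trends removed (exact permutation p 0.1). Fads1 in Re-introduction against Auxin was called once Auxin replicate 2 was left out (0.165), and after removal of both trends (0.157, or 0.158 with a replicate block). Apart from the changes that removing the trends makes by its own construction, the cause was not tested.

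Same-numbered libraries were not clearly more alike than others in their deviations from group means. Their deviations correlated at -0.172 to 0.055 (Mock and Auxin), -0.045 to 0.033 (Mock and Re-introduction) and -0.051 to 0.004 (Auxin and Re-introduction). Differently numbered libraries correlated at -0.177 to 0.239, -0.044 to 0.032 and -0.031 to 0.055 in the same order. These few correlations cannot show whether replicates were handled together. With a replicate block, 14808, 9829 and 13639 genes were called, against 15257, 10613 and 14191 without it, and 9, 9 and 8 of the 10, and 0 of the 30 calls on the 10 genes changed. Counts of mates overstate the number of fragments, so counting error is larger than the counts imply.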
